A study of Mus musculus with 12 samples.

Results

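The GAGE genes and many MAGE genes encode cancer-testis antigens. In all, 48 protein-coding genes of the 2 families were followed through 12 RNA-Seq libraries of U2OS, a human osteosarcoma cell line. The members were taken from the deposited annotation as every protein-coding gene described as a MAGE family member, a G antigen or a melanoma antigen, which gave 48 of 19951 protein-coding genes and 58735 genes in all. Matching descriptions on 17 pseudogenes were left out. The description chose the members, but the families themselves were selected on measured values, because GAGE2A had one of the lowest ratios between cells overexpressing LINC01134 and blank cells. That comparison is therefore given here as a description without a test.

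Each of 4 groups held 3 libraries. The groups were blank U2OS cells, cells that overexpress LINC01134, a long non-coding RNA (OE-LINC01134), and cells that received one of a pair of small interfering RNAs against the splicing factor SRSF1 (siSRSF1-2 and siSRSF1-3). No library of cells with a control siRNA or an empty vector was analysed here, so every comparison with blank also holds whatever transfection or transduction itself did. The labels name neither the vector, the dose nor the time. The methods of the study give a siRNA concentration and a harvest time, but place the transfection in HOS, another osteosarcoma line. Its results name U2OS for the RNA-Seq. Nothing in the labels says that replicates came from separate cultures, so p-values measure only the spread between libraries, which may be technical.

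Most cancer-testis antigens are encoded on the X chromosome, are normally transcribed in male germ cells and are silent in most other adult tissues, where their promoters are methylated. Tumours of many kinds, osteosarcoma among them, can express them again. The MAGEA, MAGEB and MAGEC subfamilies (type I) follow this pattern, whereas MAGED, MAGEE, MAGEF, MAGEH and MAGEL genes (type II) are transcribed in many normal tissues. MAGE proteins share a homology domain through which they bind E3 ubiquitin ligases, for example TRIM28 for MAGEA3 and MAGEC2. GAGE genes lie in a tandem array of nearly identical copies, and GAGE proteins carry no MAGE homology domain.

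The libraries did not all resemble their own group. Blank replicate 1 was closest to OE-LINC01134 replicate 2 (Pearson r = 0.952 across genes, which are not independent replicates), and siSRSF1-3 replicate 3 was closest to siSRSF1-2 replicate 1 (r = 0.960). Conversely, blank replicates 2 and 3, OE-LINC01134 replicates 1 and 3, and the 3 siSRSF1-2 libraries differed from one another by only 1.91 to 2.58 times counting noise. Since their spread was still larger than counting noise, each was kept as a library, and some results below are also given without a library that stands apart. LINC01134 was at 891, 1279 and 878 FPKM (fragment counts scaled for gene length and library depth) in OE-LINC01134 and between 0.497 and 1.11 FPKM in the other 9 libraries. SRSF1 stood at 35.9, 19.8 and 20.5 FPKM in blank, 7.09, 7.46 and 7.41 FPKM with siSRSF1-2, and 3.33, 6.81 and 7.90 FPKM with siSRSF1-3. The difference from blank passed the test with siSRSF1-2 (log2 fold change -1.72, adjusted p = 0.0050, limma with Benjamini-Hochberg adjustment) and missed it with siSRSF1-3 (-2.09, adjusted p = 0.0518), but it passed without siSRSF1-3 replicate 3 (-2.33, adjusted p = 0.0140). Reads on genes numbered 26237763 to 32954539 per library.

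Of the cell type markers, 6 of 7 for male germ cells and all 3 for blood had a mean under 0.1 FPKM. The summed level of the germ cell markers was 0.260 to 0.365 FPKM in blank, 0.315 to 0.529 in OE-LINC01134, 0.235 to 0.418 with siSRSF1-2 and 0.401 to 1.18 with siSRSF1-3. The mesenchymal list summed to 357 to 478 FPKM in blank, 184 to 413 in OE-LINC01134, 201 to 207 with siSRSF1-2 and 185 to 277 with siSRSF1-3, and its markers COL1A2 and TWIST1 had means under 0.1 FPKM. VIM, the intermediate filament gene vimentin, fell with siSRSF1-2 (log2 fold change -1.39, adjusted p = 0.0015, limma). At a raw p below 0.05, 6 of the 7 tested genes of that list were lower there, beside 19.7% of all genes. The remaining gene, ALPL, was higher (log2 fold change 0.43, adjusted p = 0.0098, limma), as were 20.6% of all genes at a raw p below 0.05. The part of these markers in the levels of the members was not tested. Of 5 melanocyte markers only TYRP1 reached a mean of 0.5 FPKM, and it was higher with siSRSF1-2 (mean 2.27 against 0.540 FPKM in blank, log2 fold change 1.93, adjusted p = 0.0040, limma). In bulk RNA, fewer cells that express a gene and less RNA per cell cannot be told apart.

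Part of both families was transcribed in these cells, at a level that most protein-coding genes also reached. By mean, GAGE13 (0.463 FPKM) lay above 37.9% of protein-coding genes and GAGE12C (0.564 FPKM) above 39.4%. Of the 48 members, 26 had a mean of at least 0.5 FPKM over the 12 libraries and were tested, 16 had reads but lay below that level, and 6 had no read in any library. By subfamily, 5 of 13 GAGE, 8 of 12 MAGEA, 3 of 11 MAGEB, 2 of 3 MAGEC, 4 of 4 MAGED and 4 of the 5 MAGEE, MAGEF, MAGEH and MAGEL genes passed. For 6 of the 26 tested members a single group decided whether the mean reached 0.5 FPKM. Without blank it was lower for MAGED4, MAGEL2 and GAGE12E, without siSRSF1-2 for MAGED4B and GAGE12C, and without siSRSF1-3 for GAGE12H and GAGE12E. Their being high in that group is given as a description and supports nothing, and counts over the other 20 members are given as well. The 22 members that did not pass held 19 to 87 reads per library between them. A count of 0 in a library allows up to 3 reads, by counting error alone. The position of 46 members was on the X chromosome, while MAGEF1 lay on chromosome 3 and MAGEL2 on chromosome 15.

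**Figure D1:**
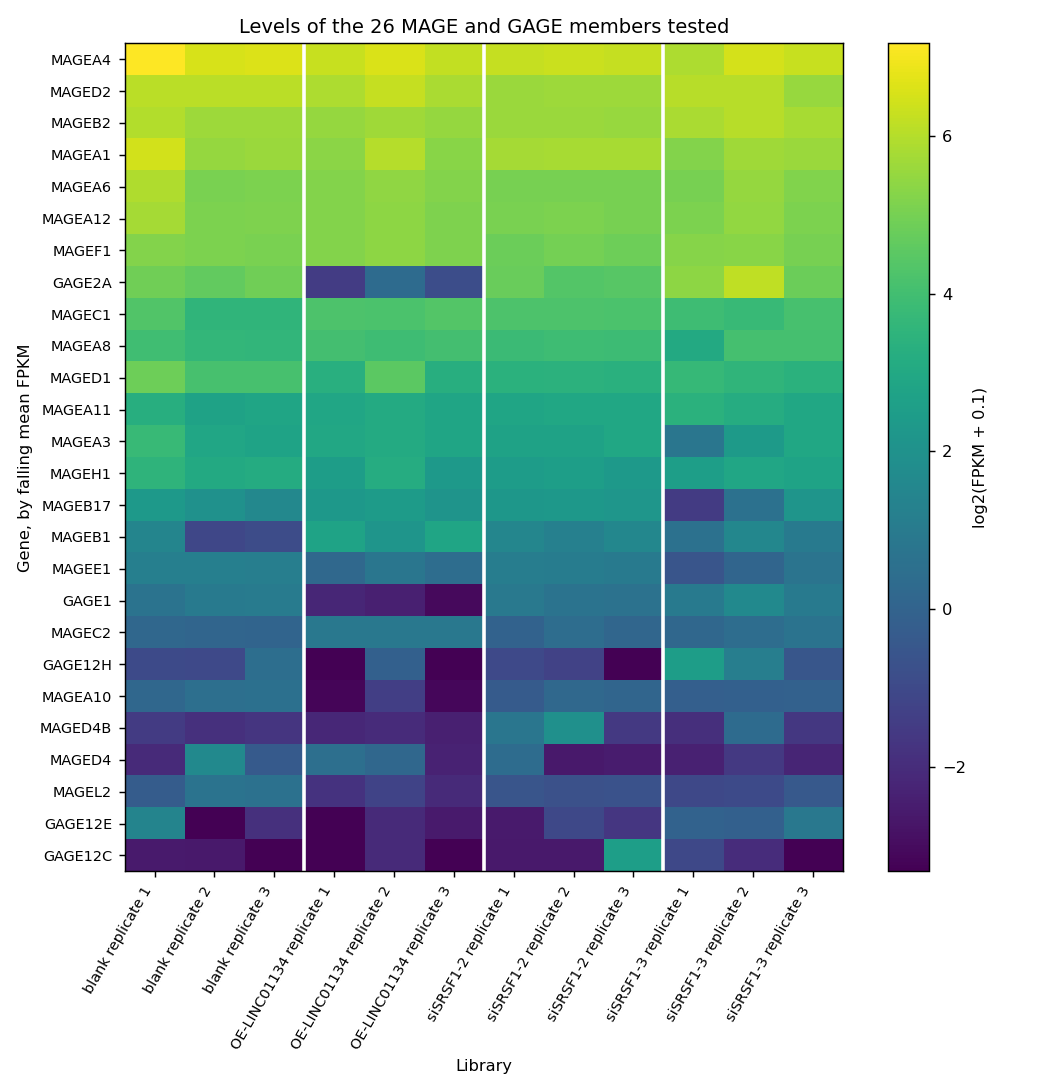
Level of the 26 tested MAGE and GAGE genes in each of the 12 libraries, as log2(FPKM + 0.1), with genes ordered by falling mean and white lines between groups. The upper rows, from MAGEA4 down, keep about the same shade across the libraries, while GAGE2A, GAGE1, MAGEA10 and MAGEL2 are darker in the 3 OE-LINC01134 columns and MAGED4 and MAGED4B change shade within groups.

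The levels spanned a wide range, and 8 genes carried 82.0% of the summed mean FPKM of all 48. MAGEA4, a type I gene, was the most abundant, above 98.1% of protein-coding genes by mean, with 144, 91.7 and 97.0 FPKM in blank. Its neighbours in the order were MAGED2, the type II gene MAGE-D2 known from a transient form of Bartter syndrome, at 68.2, 68.2 and 67.7 FPKM in blank, and MAGEB2, a type I gene, at 62.4, 49.6 and 49.8 FPKM. The blank values of MAGED2 and MAGEB2 did not overlap, by a narrow margin, whereas those of MAGEB2 and MAGEA1 (88.8, 45.7 and 47.7 FPKM) did. MAGEA6 had 60.9, 33.6 and 34.3 FPKM in blank, and MAGEA12 had 54.2, 34.6 and 35.2 FPKM. MAGEF1, whose protein binds the ligase NSMCE1, had 37.1, 34.1 and 33.4 FPKM. GAGE2A was the eighth gene in this order and the only GAGE gene of the 11 members with a mean of at least 10 FPKM.

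Blank replicate 1 was the highest blank library for 21 of the 26 tested members, which is 80.8%, against 47.3% of all 17538 genes tested. In OE-LINC01134, replicate 2 was the highest library for 21 of the 26, against 41.8% of all genes. Each of these 2 libraries was the closest library to the other. The spread of the abundant type I genes in blank came mostly from that 1 library, as the values above show, and its part in each comparison below is given where it changed a call.

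The GAGE array contains copies that cannot be counted separately with confidence. The 13 GAGE members lay between positions 49303669 and 49608536 of the X chromosome as the file gives them. No human genome build is stated for these positions, and the labels name a mouse build, which human gene identifiers cannot have. GAGE2A (ENSG00000189064) started at position 49589529 on the strand of GAGE1 (ENSG00000205777), which started at 49589496 and overlapped it. Their reads, and those of the other copies, may be shared, and how such reads were assigned is not given in the sources used here.

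In blank cells GAGE2A held most GAGE reads, with 437, 372 and 514 reads, which corresponded to 29.9, 24.8 and 29.8 FPKM. GAGE1 was counted at 133, 172 and 209 reads, or 1.48, 1.87 and 1.97 FPKM, on a longer gene model. The 11 other copies together had 46, 14 and 29 reads. Within 1 group, single copies appeared and vanished. GAGE12C held 109 reads in siSRSF1-2 replicate 3 and 1 read in each of the other siSRSF1-2 libraries, which otherwise nearly matched it. GAGE13, below the level for testing, held 57 reads in siSRSF1-3 replicate 1 and 1 read in the other libraries together, and GAGE12E held 37 reads in blank replicate 1 against 0 and 3 in the other blank libraries. GAGE12C was chosen after its values were seen. For these reasons the summed GAGE level was used beside that of single copies.

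With LINC01134 overexpressed, reads over the whole GAGE array were few. GAGE2A had 4, 17 and 7 reads in the 3 OE-LINC01134 libraries, or 0.261, 1.18 and 0.464 FPKM, far below each blank library. The mean was 0.635 ± 0.482 FPKM (SD, n = 3) against 28.1 ± 2.91 FPKM in blank, a level 44.4 times higher in blank. Its log2 fold change of -5.46 on the log2(FPKM + 0.1) scale ranked first from the lowest of the 17538 genes, and without blank replicate 1 and OE-LINC01134 replicate 2 together it was -5.92.

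GAGE1 was lower in the same libraries, with 11, 8 and 2 reads, or 0.117, 0.0905 and 0.0216 FPKM, and its mean in blank was 23.2 times higher. Because these levels are near the added constant, its log2 fold change of -3.44 moved to -1.36 with a constant of 1 and to -4.58 with a constant of 0.01. Reads may be shared between GAGE1 and GAGE2A, so the 2 values may not be separate observations. The 11 other copies had 1, 16 and 1 reads, 12 of the 16 on GAGE12H. Summed over the array, the level was 34.6, 27.6 and 33.4 FPKM in blank and 0.443, 2.38 and 0.553 FPKM in OE-LINC01134, which did not overlap, at a log2 ratio of -5.25.

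**Figure D2:**
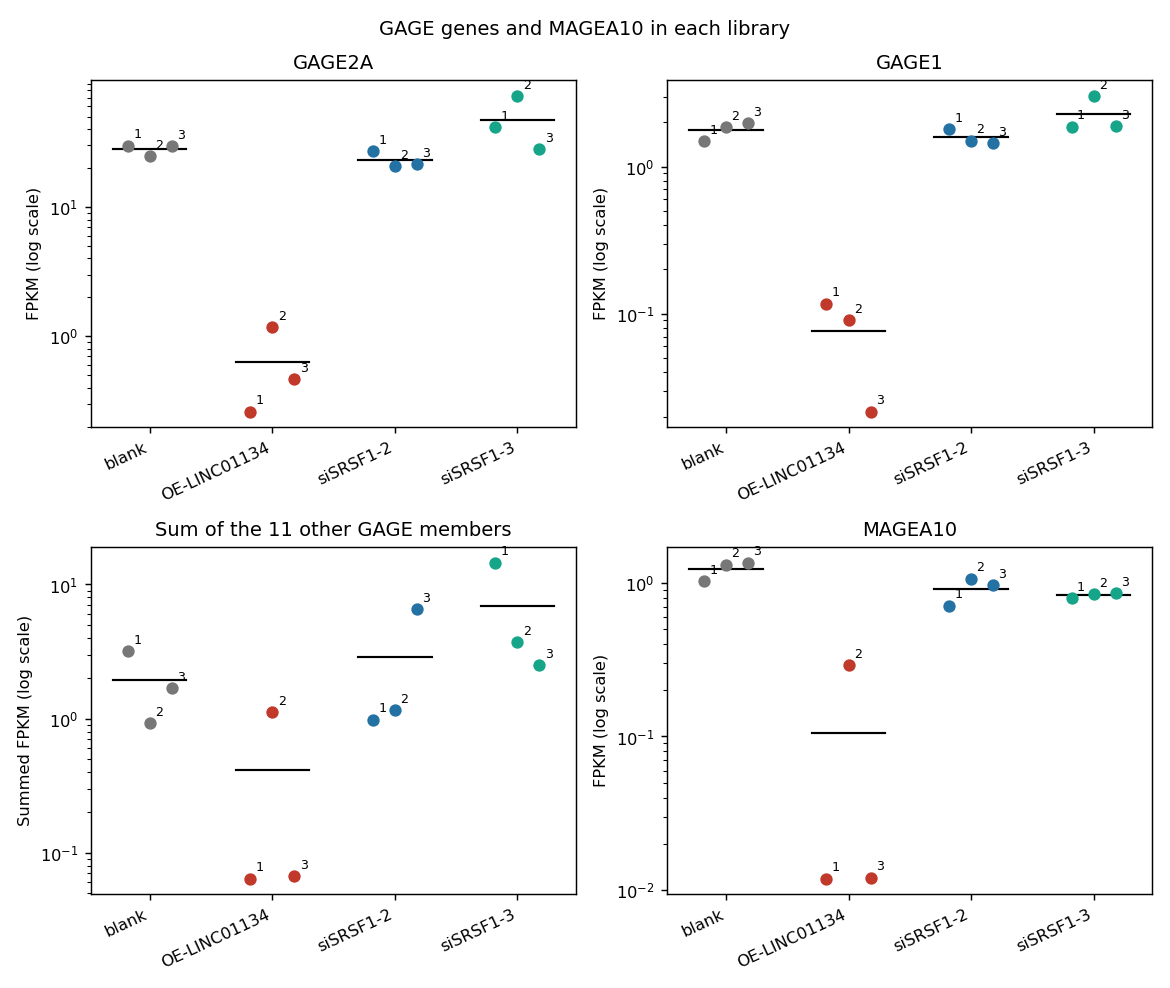
FPKM on a log scale of GAGE2A, GAGE1, the sum of the 11 other GAGE copies and MAGEA10 in each library, with points numbered by replicate, bars at group means and groups along the horizontal axis. The OE-LINC01134 points of GAGE2A (0.261 to 1.18 FPKM) lie under all other libraries (20.8 to 72.6 FPKM), and for GAGE2A, MAGEA10 and the summed copies replicate 2 is the highest of the 3.

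Among the MAGE genes, the levels that stood apart from blank with OE-LINC01134 belonged to low-abundance members. MAGEA10, a type I gene, had 82, 108 and 128 reads in blank and 1, 23 and 1 reads in OE-LINC01134, or 1.02, 1.31 and 1.35 against 0.0119, 0.290 and 0.0121 FPKM. MAGEL2, an imprinted gene of the Prader-Willi region whose protein acts with the ligase TRIM27, had 0.719, 1.499 and 1.39 FPKM in blank and 0.192, 0.331 and 0.138 FPKM in OE-LINC01134. Both were lower in each OE-LINC01134 library than in any blank library, with log2 fold changes of -2.96 and -2.01. With an added constant of 1 these were -1.02 and -0.84, and with 0.01 MAGEA10 was at -4.55. MAGEB1, a type I gene, went the other way, at 2.66, 0.375 and 0.435 FPKM in blank and 6.64, 4.35 and 7.05 FPKM in OE-LINC01134, a log2 fold change of 2.75. Its blank replicate 1 alone was close to the overexpressing libraries, and without blank replicate 1 and OE-LINC01134 replicate 2 the value was 3.78.

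Smaller differences without overlap were seen for MAGEE1, MAGEC2 and MAGED4B. Without overlap, at any size, 6 of the 26 members were lower and 2 higher, beside 2416 and 2944 of the 17538 genes tested. MAGED4B had a mean of 0.122 FPKM against 0.210 FPKM in blank, and its unstable counts are described below. MAGEE1, a type II gene, had 2.23, 2.20 and 2.12 FPKM in blank and 1.07, 1.62 and 1.26 FPKM in OE-LINC01134 (log2 fold change -0.70). MAGEC2, a type I gene whose protein binds TRIM28, had 1.03, 0.972 and 0.952 FPKM in blank and 1.73, 1.75 and 1.72 FPKM in OE-LINC01134 (0.76). MAGED1 overlapped, at 29.0, 17.4 and 17.4 against 9.77, 22.7 and 9.51 FPKM, since OE-LINC01134 replicate 2 lay among the blank libraries.

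The abundant MAGEA genes had levels in OE-LINC01134 that overlapped those of blank. MAGEA4 was at 78.1, 96.1 and 73.1 FPKM in OE-LINC01134, MAGEA1 at 40.5, 64.4 and 39.0 FPKM, and MAGEA6 at 36.9, 43.3 and 36.9 FPKM. The summed MAGEA level was 288 ± 86.6 FPKM in blank and 240 ± 34.5 FPKM in OE-LINC01134 (SD, n = 3), a log2 ratio of -0.23 that spanned -0.36 to 0.0012 over the alternatives tried. The members other than GAGE and MAGEA summed to 213 ± 23.7 and 204 ± 25.99 FPKM.

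Counted over the 26 tested members, 20 had a negative and 6 a positive log2 fold change with OE-LINC01134, with a median of -0.22 beside 0.05 for all genes tested. The log2 fold change was under -1 without overlap for 4 members, GAGE2A, GAGE1, MAGEA10 and MAGEL2, where 4.31% of all genes met that rule, and over 1 without overlap for MAGEB1 alone, where 2.25% of all genes did. MAGEL2 reached the level for testing only through blank, and with an added constant of 1 it left the count of 4. The choice of the families used this same comparison, so these counts are descriptive.

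The summed GAGE level with either siRNA against SRSF1 overlapped blank. GAGE2A stood at 27.2, 20.8 and 21.5 FPKM with siSRSF1-2, which overlapped blank, and at 41.5, 72.6 and 28.1 FPKM with siSRSF1-3, which also overlapped blank. The log2 fold change was -0.29 ± 0.13 (SE, adjusted p = 0.157, limma) with siSRSF1-2 and 0.65 ± 0.35 (adjusted p = 0.244) with siSRSF1-3, and neither passed. These comparisons use the same blank libraries as the overexpression comparison. MAGEA10 was at 0.709, 1.06 and 0.963 FPKM with siSRSF1-2 and at 0.792, 0.841 and 0.852 FPKM with siSRSF1-3, and MAGEB1 at 2.72, 2.27 and 2.78 and at 1.40, 2.80 and 1.87 FPKM.

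With siSRSF1-2 against blank, no member of 26 passed both thresholds (adjusted p below 0.05 together with a log2 fold change beyond 1 in size, limma), where 4.95% of all genes did. At a raw p below 0.05 the test counted 6 members lower and 0 higher, and 5 lower and 0 higher among the 20 members that no single group carried, beside 19.7% of all genes lower and 20.6% higher. Voom, which weights log2 read counts by their precision, called 2 lower, MAGED1 and MAGEL2, the latter tested only through its level in blank. The share of all genes that voom called is not given in this text, so nothing is read from those calls. MAGED2, MAGED1 and MAGEH1 were lower at an adjusted p under 0.05 without the minimum fold change. They made up 11.5% of the members tested, beside 12.8% of all genes lower by that rule, so the share was near the background.

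MAGED2 had the smallest error of these, with 48.8, 50.1 and 49.8 FPKM against 68.2, 68.2 and 67.7 FPKM in blank, and it fell by 0.46 on the log2 scale (SE 0.05, adjusted p = 0.0026, limma). MAGED1, which encodes an adaptor of the p75 neurotrophin receptor also known as NRAGE, had 10.3, 10.6 and 10.1 FPKM against 29.0, 17.4 and 17.4 FPKM. It fell by 0.996 (adjusted p = 0.0176, limma), just within the minimum fold change, and by 0.75 without blank replicate 1. Without blank replicate 2 or blank replicate 3 it fell by 1.12 and passed both thresholds (adjusted p = 0.0304 and 0.0306, limma). The share of all genes called without a blank library is not given in this text, so nothing is read from those calls. MAGEH1, a small MAGE gene with a short coding region, had 5.41, 5.74 and 4.94 FPKM against 11.4, 8.18 and 8.57 FPKM and fell by 0.78 (adjusted p = 0.0120, limma). In all of them each siSRSF1-2 library lay under each blank library, as it did for 11 of the 26 members and 4245 of the 17538 genes tested.

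MAGEL2 stood at 0.572, 0.510 and 0.529 FPKM with siSRSF1-2, also under each blank library, and nothing is read from this, since its level in blank alone brought it to the test. MAGEB1 depended on blank replicate 1, the only blank library near the level of the siSRSF1-2 libraries. Its log2 fold change was 1.59 with an adjusted p of 0.133 over all libraries, and 2.41 with 1.4e-04 without that library (limma). The blank libraries that remain differed from each other by only 2.23 times counting noise. The share of all genes called without blank replicate 1 is not given in this text, so nothing is read from that value. A log2 fold change between -0.49 and 0.43 was found for 17 of the 26, GAGE2A and MAGED2 included, and the median over all 26 was -0.26 beside 0.02 for all genes tested.

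MAGED4 and MAGED4B are near-identical copies at separate places on the X chromosome, and their values were not stable between libraries that otherwise matched. MAGED4B had 235, 553 and 41 reads and MAGED4 had 165, 9 and 13 reads in the 3 siSRSF1-2 libraries. Their sum, 400, 562 and 54 reads, varied by 246 times counting noise there, where the median gene varied by 1.66 times and the 95th percentile of genes by 9.05 times. In blank replicates 2 and 3 the sum was 439 and 140 reads. The log2 fold change of MAGED4B with siSRSF1-2, 2.09 (adjusted p = 0.128, limma), became 3.08 and passed without siSRSF1-2 replicate 3 (adjusted p = 0.0228). No difference between groups is read from this pair.

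With siSRSF1-3 against blank, 0 of 26 members passed both thresholds (limma), where 1.26% of all genes did. At a raw p below 0.05 there were 4 members lower and 0 higher, and 3 lower among the 20, beside 13.6% of all genes lower and 15.2% higher, so the share was near the background. Voom called 0. Those 4 were MAGED1, MAGEE1, MAGEL2 and MAGEH1, and in each the siSRSF1-3 libraries lay under the blank libraries. The same held for 7 of the 26 members and 3160 of the 17538 genes tested. MAGED1 stood at 13.0, 11.7 and 10.3 FPKM (log2 fold change -0.82, adjusted p = 0.105, limma) and MAGEH1 at 5.76, 7.21 and 6.71 FPKM (-0.50, adjusted p = 0.158). MAGEL2, tested only through its level in blank, stood at 0.390, 0.419 and 0.668 FPKM. MAGED2, which passed at adjusted p alone with the other siRNA, had 65.6, 65.6 and 46.9 FPKM.

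The siSRSF1-3 libraries spread more widely among themselves than those of the other groups, at 18.7 to 73.3 times counting noise between pairs. MAGEE1 had 0.590, 0.964 and 1.53 FPKM, MAGEB17 had 0.253, 1.39 and 4.30 FPKM, and MAGEA3, whose protein activates TRIM28, had 1.63, 5.21 and 7.57 FPKM. In each of these, replicate 3 was nearest to the siSRSF1-2 libraries, which stood at 1.89 to 2.06, 4.45 to 4.69 and 6.43 to 7.43 FPKM. Without replicate 3, MAGEE1 (log2 fold change -1.41, adjusted p = 0.0149) and MAGEB17 (-2.43, adjusted p = 0.0332, limma) passed as lower than blank. With all 3 libraries the values were -1.10 and -1.57. The share of all genes called without replicate 3 is not given in this text. Nothing about the members or the lists is therefore read from calls made without that library. Among the siSRSF1-3 libraries, replicates 1 and 2 carried a scaling unlike the others. Their deposited FPKM implied library sizes of 0.712 and 0.888 times their own read totals. Replicate 3 stood at 1.06, as did the median library.

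Overlapping transcripts limit some of these values. MAGEB17 overlaps an antisense transcript that held 266, 306 and 247 reads in the siSRSF1-3 libraries, against 8, 57 and 216 reads on MAGEB17 itself. MAGEA4 overlaps MAGEA4-AS1, on the opposite strand, with 1458, 1389 and 1251 reads with siSRSF1-3 and 658, 664 and 841 reads in blank. Whether counting used strand is not given in the sources used here, and without strand the reads of such pairs cannot be told apart. MAGEA3, MAGEA6 and MAGEA12 are close relatives, and MAGEA2B and MAGEA2, their neighbours in sequence, were counted at no more than 30 and 8 reads per library.

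The 2 siRNAs were compared directly with each other, a comparison that uses none of the libraries on which the families were selected. Here 0 of 26 members passed (limma), where 0.0855% of all genes did, or 15 of 17538. At a raw p below 0.05 there were 5 members higher and 2 lower with siSRSF1-3, and 3 higher and 2 lower among the 20, beside 21.9% of all genes higher and 20.2% lower. Voom called 0. Without overlap, 7 of the 26 members were higher and 4 lower with siSRSF1-3, beside 4735 and 4844 of the 17538 genes tested. GAGE2A was higher in each siSRSF1-3 library (28.1 to 72.6 FPKM) than in each siSRSF1-2 library (20.8 to 27.2 FPKM), with a log2 fold change of 0.93 ± 0.35 (SE, adjusted p = 0.105, limma). Without siSRSF1-3 replicate 3 it was 1.25 and passed (adjusted p = 0.0139).

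GAGE12H and GAGE12E reached the level for testing only with siSRSF1-3 included, so their reads are given without a test. GAGE12H had 58, 29 and 10 reads with siSRSF1-3 and 6, 5 and 0 reads with siSRSF1-2, and GAGE12E had 9, 11 and 28 against 1, 6 and 4 reads. The summed GAGE level was 58.0, 79.4 and 32.5 FPKM with siSRSF1-3 and 29.96, 23.4 and 29.5 FPKM with siSRSF1-2, which did not overlap, at a log2 ratio of 0.95. The ratio was 0.37 when every library was rescaled to the same summed FPKM, a scaling that moved the median of all genes from -0.02 to -0.57. MAGEE1 (log2 fold change -0.98, adjusted p = 0.091) and MAGEB17 (-1.82, adjusted p = 0.154, limma) were lower in each siSRSF1-3 library than in each siSRSF1-2 library, and both passed without replicate 3. The other 18 members with a log2 fold change between -0.47 and 0.46 included all MAGEA genes except MAGEA3, and the median of the 26 was 0.05.

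**Figure D3:**
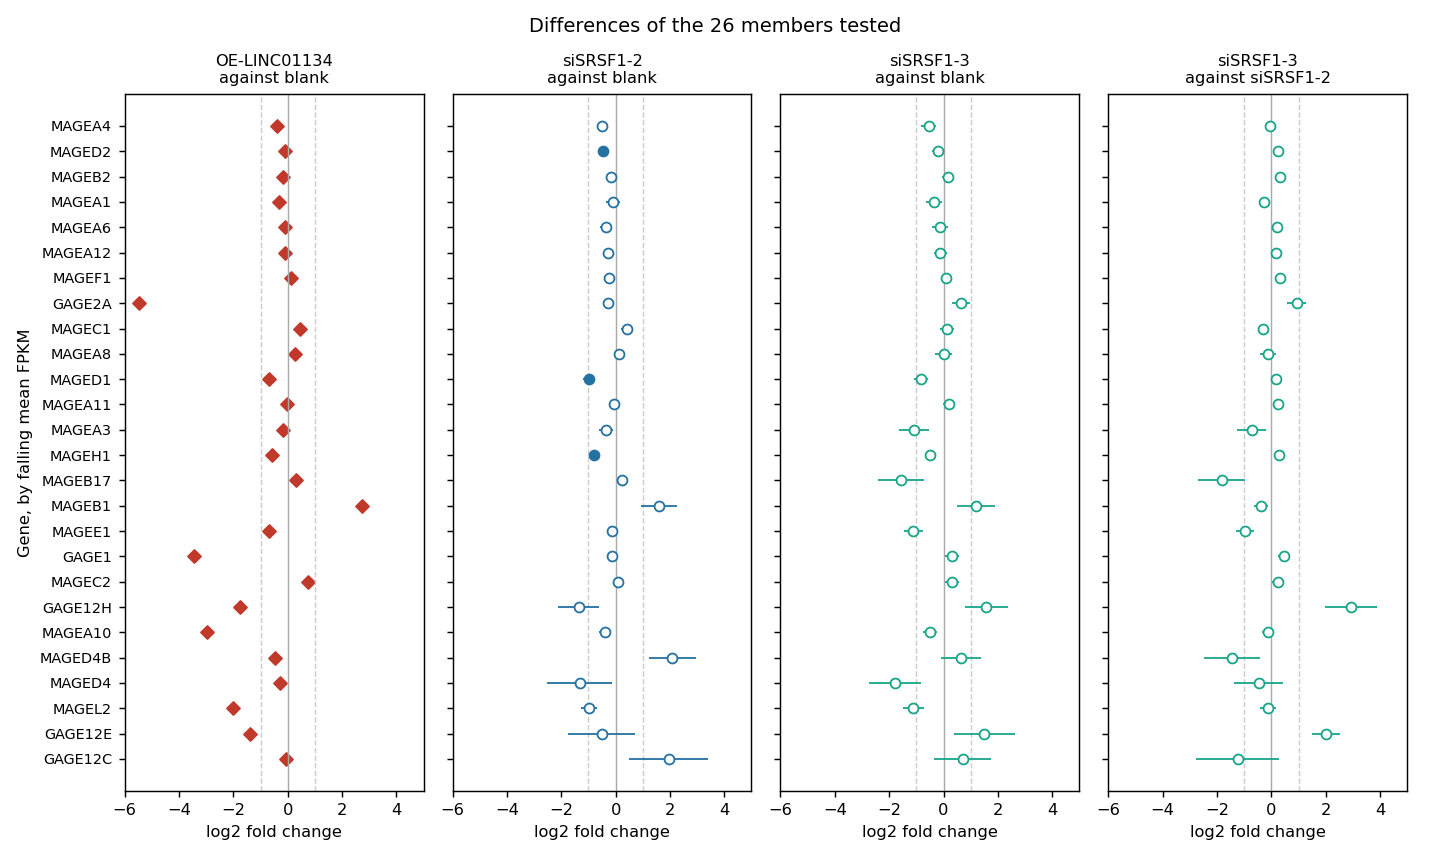
Log2 fold change, from log2(FPKM + 0.1), of the 26 tested members in the 4 comparisons, with horizontal bars for standard errors, dashed lines at -1 and 1, and filled circles for an adjusted p under 0.05. Diamonds show OE-LINC01134, which was described without a test, and only MAGED2, MAGED1 and MAGEH1 with siSRSF1-2 are filled.

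Other cancer-testis antigens were examined as a list of 52 genes outside both families, 22 of which were tested. The most abundant were the X-linked PAGE2 and PAGE2B, relatives of the GAGE genes, and PRAME, an antigen first found in melanoma. In OE-LINC01134 against blank, PAGE1, the only tested gene outside the families within 200 kb of GAGE2A, stood at 0.467, 0.220 and 0.263 FPKM against 2.82, 4.23 and 3.77 FPKM. PAGE1, PAGE5, XAGE2 and CTAG2, which encodes the antigen LAGE-1, had log2 fold changes of -3.18, -3.46, -3.22 and -3.20 without overlap. PAGE5 was at 0, 0 and 0.047 FPKM in OE-LINC01134, under the added constant of 0.1, so that constant limits its fold change. How far another constant moves these 4 values is not given here. These 4 genes were 18.2% of the 22, where 4.31% of all genes had a log2 fold change under -1 without overlap. The list was written with earlier results of these data known, so this share is descriptive. PAGE2 was also lower without overlap, but by less, at 109, 109 and 101 FPKM against 140, 146 and 144 FPKM (log2 fold change -0.44). Of the 22, 15 had a negative and 7 a positive log2 fold change, with a median of -0.41 beside 0.05 for all genes tested. Differences as large as those of the 4 genes did not extend over all of this list.

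With siSRSF1-2, 1 of the 22 was called, XAGE2, which fell by 2.01 on the log2 scale (adjusted p = 0.0066, limma). Of all genes 4.95% were called there. At a raw p below 0.05, 2 of the 22 were higher and 9 lower (20.6% and 19.7% of all genes), and the median was -0.25. With siSRSF1-3 against blank none of the 22 was called by limma, with 7 higher and 0 lower at a raw p below 0.05 (15.2% and 13.6% of all genes), although 18 of the 22 had a positive log2 fold change and the median was 0.73. Against siSRSF1-2 the count was again 0, with 15 higher and 1 lower at a raw p below 0.05 (21.9% and 20.2% of all genes), and the median was 1.18. The deposited FPKM of all genes summed to 611084, 410612 and 302504 in the siSRSF1-3 libraries, and to 281051 to 324607 in the other groups. Rescaling every library to the same sum moved the median of all genes to -0.43 against blank and -0.57 against siSRSF1-2. Values of this list after rescaling are not given here, so the part of the scaling in its medians was not tested. XAGE5 stood at 97.5, 54.5 and 32.4 FPKM with siSRSF1-3, against 14.6, 15.2 and 15.2 FPKM in blank (log2 fold change 1.89, adjusted p = 0.0580, limma), and without replicate 3 it passed (2.28, adjusted p = 0.0107). PAGE1 stood at 22.1, 12.1 and 4.34 FPKM (1.54, adjusted p = 0.134, limma), and it too passed without replicate 3 (2.17, adjusted p = 0.0117). Replicate 1, whose implied library size was 0.712 times its read total, was the highest siSRSF1-3 library for 16 of the 22, against 40.8% of all genes, and replicate 3 the lowest for 18, against 41.7% of all genes. GAGE2A, in contrast, was highest in replicate 2, whose implied library size was 0.888 times its read total. None of the 3 protein-coding genes within 200 kb of MAGEA4 was tested.

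**Figure D4:**
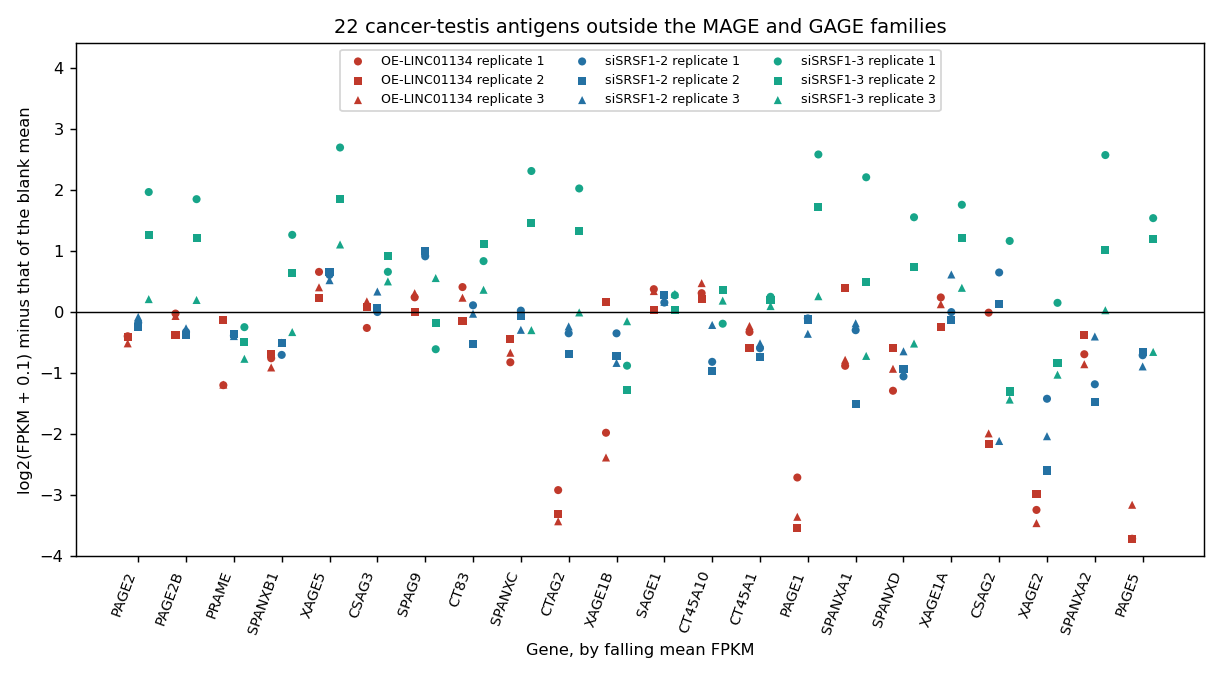
Level of 22 cancer-testis antigens outside the MAGE and GAGE families in each OE-LINC01134, siSRSF1-2 and siSRSF1-3 library, as the difference of log2(FPKM + 0.1) from that of the blank mean (line at 0), with 1 marker shape for each replicate. siSRSF1-3 replicate 1 is the highest library of its group for 16 genes, and the lowest OE-LINC01134 points belong to PAGE5, XAGE2, CTAG2 and PAGE1.

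Most partners of MAGE proteins and regulators of DNA methylation reached the level for testing. Of 15 partner genes 14 were tested, and 0 were called by limma in any of the 3 tested comparisons, with 2 higher and 2 lower, 1 higher and 2 lower, and 2 higher and 2 lower at a raw p below 0.05, in the order siSRSF1-2, siSRSF1-3 and between the siRNAs. Over all genes these shares were 20.6% and 19.7%, 15.2% and 13.6%, and 21.9% and 20.2%. TRIM28, the ligase partner of several type I MAGE proteins and a co-repressor of transcription, had 65.8, 28.1 and 28.5 FPKM in blank, 34.5, 57.4 and 36.0 FPKM in OE-LINC01134, 24.3, 25.7 and 23.1 FPKM with siSRSF1-2 and 51.8, 38.0 and 24.4 FPKM with siSRSF1-3. Necdin (NDN), a MAGE-domain protein encoded next to MAGEL2, ranged from 30.2 to 69.0 FPKM, and NSMCE3, a MAGE-domain subunit of the SMC5/6 complex, from 6.19 to 10.7 FPKM. With siSRSF1-2, NSMCE3 had an adjusted p of 0.0079 (limma) at a log2 fold change of 0.40, under the minimum.

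Of 21 methylation and chromatin genes 19 were tested, and 0 were called by limma in any of these comparisons, with 7 higher and 0 lower for siSRSF1-2, 0 and 3 for siSRSF1-3, and 1 and 8 between the siRNAs at a raw p below 0.05. The shares over all genes are those given for the partners, and 3 of 19 lower with siSRSF1-3 was near the 13.6% of all genes. The 7 higher with siSRSF1-2 included DNMT3A (log2 fold change 0.99, adjusted p = 0.0163), TET3 (0.79, 0.0061) and TET2 (0.77, 0.0044, limma), all under the minimum. DNMT1 and UHRF1 were at -0.58 and -0.62 there (adjusted p = 0.134 and 0.245, limma). DNMT1, which maintains DNA methylation after replication, stood at 22.1, 12.2 and 11.6 FPKM in blank, 17.3, 18.6 and 17.9 FPKM in OE-LINC01134, 9.67, 10.1 and 9.52 FPKM with siSRSF1-2 and 3.39, 7.08 and 10.6 FPKM with siSRSF1-3. UHRF1, which brings DNMT1 to newly copied DNA, had 25.4, 10.6 and 9.89 FPKM in blank, 15.9, 20.3 and 16.6 FPKM in OE-LINC01134, 8.73, 9.15 and 9.08 FPKM with siSRSF1-2 and 5.205, 4.92 and 8.18 FPKM with siSRSF1-3. The log2 fold changes with siSRSF1-3 were -1.19 for DNMT1 and -1.21 for UHRF1 (adjusted p = 0.145 and 0.122, limma), and both passed without siSRSF1-3 replicate 3 (adjusted p = 0.0365 and 0.0488). The methylation of MAGE or GAGE promoters was not measured, and the part of these levels in those of the members was not tested.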

How the data were processed

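RNA-Seq was analysed in 12 libraries of U2OS cells, 3 each of blank, OE-LINC01134, siSRSF1-2 and siSRSF1-3, grouped by their labels. Per gene and library, the values deposited by the authors are FPKM, given with gene lengths. FPKM times length was a whole multiple of 1 step per library, from which reads per gene were recovered. The aligner, the counting program and the human build are not given in the sources used here. The labels give mouse as organism, but the gene identifiers are human. The labels name a SMARTER kit and the supplementary methods a NEBNext kit for the libraries. Symbols were assigned from the full gene names in the file.

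Genes with a mean of at least 0.5 FPKM (17538) were tested on log2(FPKM + 0.1) with limma 3.58.1 in R 4.3.3 (empirical Bayes with a trend, 2-sided, Benjamini-Hochberg adjustment over all genes), on the libraries of each comparison. A gene was called at an adjusted p below 0.05 with a log2 fold change beyond 1 in size. Fold changes on this scale understate the change of low genes. The test was run first on simulated data, with the same dispersion for every gene and no library that stood apart. That run therefore does not show how the test behaves at the spread of these libraries. Named genes were GAGE2A, the 25 members with the highest mean among those of at least 0.5 FPKM, members or list genes that passed, and fixed partner, regulator and target genes. Some other list genes, ALPL, DNMT3A, TET2 and TET3 among them, were named after their values were seen. Of the single-member fold changes, those printed are mainly ones that reached 0.5 on the log2 scale or had an adjusted p under 0.05, and not all such values are printed. Members and lists were chosen with earlier results of these data known. Same-numbered replicates did not deviate together (correlations from -0.08 to 0.04). Alternatives covered the added constant, the filter, the scaling, the fit, voom on recovered reads, a replicate block, and leaving out each library. Intervals and floors cover counting error only.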

Additional observations from a re-analysis of the deposited data

How the results depend on the processing

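No member passed both thresholds in any tested comparison, and this depended on the setting in places. Except for adjusted p alone, the share of all genes called under each other setting is not given in this text. The counts below therefore show only how far the calls moved, and nothing about the members is read from them. For siSRSF1-2 against blank, 1 member was lower with an added constant of 0.01 (MAGED1), 2 with voom (MAGED1 and MAGEL2) and 3 at adjusted p alone (MAGED1, MAGED2 and MAGEH1), and leaving out 1 library gave 0 to 1 higher and 0 to 1 lower. For siSRSF1-3 against blank, 2 were lower in one fit over all groups (MAGEE1 and MAGEL2), and leaving out 1 library gave 0 to 1 higher and 0 to 3 lower, all of these calls without siSRSF1-3 replicate 3. Between the siRNAs, 1 was higher in the fit over all groups (GAGE12H), and leaving out 1 library gave 0 to 3 higher and 0 to 2 lower, again only without siSRSF1-3 replicate 3. With the replicate block 0 members were called in each comparison, as in the main fits. With near-identical libraries averaged, an alternative chosen after seeing the data, 0 members were called, and SRSF1 itself (adjusted p = 0.791, limma) and XAGE2 were no longer called with siSRSF1-2, which leaves 1 library in that group. MAGEL2 among these calls was tested only through its level in blank, and GAGE12H and GAGE12E only with siSRSF1-3 included, so nothing is drawn from their calls. The cause was not tested where the construction of a setting does not show it.

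Summed levels with siSRSF1-3 moved with the scaling. In the main setting the log2 ratio against blank was 0.74 for GAGE, -0.33 for MAGEA and -0.11 for the other MAGE members. Against siSRSF1-2 these were 0.95, -0.03 and 0.17. The GAGE ratio against blank spanned 0.30 to 1.10 over the alternatives tried. With FPKM rescaled to the same sum, the log2 ratio against blank was -0.78 for MAGEA and -0.56 for the other MAGE members, and against siSRSF1-2 it was 0.37 for GAGE, -0.61 for MAGEA and -0.41 for the other MAGE members. That scaling moved the median of all genes to -0.43 against blank and -0.57 against siSRSF1-2. With the reads of each library as its depth, the other MAGE members were at -0.37 against blank, and against siSRSF1-2 MAGEA was at -0.34 and the other MAGE members at -0.14. As summed reads per library total these values were -0.48, -0.33 and -0.20. With siSRSF1-2 against blank, rescaling gave -0.15 for the other MAGE members.

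The log2 fold changes of 3 low copies changed sign. GAGE12E with siSRSF1-2 was 0.18 with a constant of 0.01 and -1.54 to 0.83 with 1 library left out. MAGED4B with siSRSF1-3 was -0.066 to 1.07, and GAGE12C between the siRNAs -2.11 to 0.48, with 1 library left out. GAGE12E held fewer than 10 reads in most libraries, which limits its precision, whereas the spread of MAGED4B and GAGE12C within siSRSF1-2 was far above counting noise.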
